A study of Mus musculus with 6 samples.

Results

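The transcripts of p53 and of genes that p53 is known to activate were followed in Neuro-2a, a line of mouse neuroblastoma cells able to form neurites, after the long noncoding RNA lncPim1 was raised or lowered. The list had 33 members, chosen by symbol from general knowledge of the pathway, with earlier results of these data known. Each member matched 1 of the 21878 rows of the expression table. Of the members, 25 reached a mean of 1 FPKM (fragments scaled to transcript length and library size) over all libraries and were tested among 10721 such genes, and 8 did not. Bulk RNA sequencing covered 6 libraries in 3 groups of 2: cells overexpressing lncPim1, cells with lncPim1 knockdown through RNA interference, and control cells labelled wild type. The same cell line was used for every group, and no empty vector, scrambled RNA or other treatment is named for any of them. The series title names neuron-like differentiation and ACR injury, neither of which appears in the labels of the libraries. Whether replicate libraries came from separate cultures is not stated, so p-values measure only the spread between libraries, which may be technical.

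p53, encoded by Trp53 in the mouse, is a transcription factor that is kept scarce by the ubiquitin ligase Mdm2 and accumulates, mainly through slower breakdown of the protein, after DNA damage and other stress. It then raises transcription of genes that halt the cell cycle, start cell death, repair DNA, restrain growth signalling and, through Mdm2, limit p53 itself. Many of these genes also answer to other regulators: Gdf15, Ddit4 and Sesn2 to the stress factor ATF4, and Btg2, Plk2, Plk3 and Gadd45a to growth factor signals. In human neuroblastoma the p53 gene is seldom mutated at diagnosis. RNA levels do not show the amount of p53 protein, which was not measured here.

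Mouse p53 binds a pair of similar decamers, each made of purines, C, a pair of A or T, G and pyrimidines. Promoter stretches from RefSeq on build GRCm38.p6, the assembly on which mm10 is based, were available for 25 of the 33 members in 36 windows, each from 250 bases before to 50 bases after an annotated transcription start. A pair of p53 decamers, at most 13 bases apart and with at most 2 mismatches in all and the central C and G of each intact, stood in 5 of these windows (13.9%), in Cdkn1a, Ccng1, Sesn1, Gadd45a and Trp73, and in 4.09% of all 32851 promoter windows. The stretches before the start of Cdkn1a and Ccng1 are shown because these classical p53 targets moved in opposite directions under knockdown. That of Btg2 is shown for the cyclic AMP element TGACGTCA. Each runs 5′ to 3′ from 250 bases before the start to the base before it, with p53 decamers or the TGACGTCA letters in capitals, and overlapping decamers run together.
Cdkn1a, chr17:29090729-29090978, plus strand: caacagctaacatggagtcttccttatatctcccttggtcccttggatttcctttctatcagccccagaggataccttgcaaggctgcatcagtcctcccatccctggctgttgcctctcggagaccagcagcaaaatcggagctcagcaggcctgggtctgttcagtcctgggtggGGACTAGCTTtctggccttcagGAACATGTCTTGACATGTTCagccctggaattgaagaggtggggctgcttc
Ccng1, chr11:40755287-40755536, minus strand: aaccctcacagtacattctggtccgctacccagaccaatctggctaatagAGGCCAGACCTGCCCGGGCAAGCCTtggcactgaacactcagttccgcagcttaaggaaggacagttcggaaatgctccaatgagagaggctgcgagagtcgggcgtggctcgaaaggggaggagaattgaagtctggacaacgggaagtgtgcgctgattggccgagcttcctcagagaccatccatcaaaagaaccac
Btg2, chr1:134079156-134079405, minus strand: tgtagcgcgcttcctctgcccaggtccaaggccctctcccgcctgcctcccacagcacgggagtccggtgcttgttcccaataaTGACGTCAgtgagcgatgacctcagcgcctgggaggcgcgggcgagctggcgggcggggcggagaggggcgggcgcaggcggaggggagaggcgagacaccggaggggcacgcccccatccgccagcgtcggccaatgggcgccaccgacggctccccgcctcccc

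In Cdkn1a, decamers with 0, 0 and 1 mismatches began 73, 51 and 41 bases before the first of its annotated starts. The second start lies 2790 bases further downstream, so this site is distal for transcripts from there. In Ccng1 the pair without a spacer began 195 bases before the start, with 1 mismatch. The other pairs had 2 mismatches and are shown as the site alone, with the decamers in capitals and the spacer in lower case.
Sesn1, chr10:41887253-41887275, plus strand: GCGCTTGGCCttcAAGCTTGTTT
Gadd45a, chr6:67037438-67037468, minus strand: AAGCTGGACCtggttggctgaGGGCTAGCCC
Trp73, chr4:154097220-154097239, minus strand: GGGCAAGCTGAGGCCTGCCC

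The letters TGACGTCA (on either strand) stood in windows of 2 members, Btg2 and Plk2. These were 5.56% of the 36 member windows, against 1.79% of all windows. The AP-1 letters TGANTCA stood in 1 member, Fas (2.78% of the member windows), against 7.81% of all windows. The ATF4 letters TGATGNAAN stood in 1 member, Polk (2.78%), against 3.95%. These matches describe the letters of these short windows and were not tested for binding.

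No row of the table bears the name lncPim1, so its own level in the manipulated cells was not analysed here. Summed FPKM was 294510 and 303139 in overexpressing cells, 277508 and 272528 in knockdown cells, and 298032 and 305463 in control cells. The first principal component of all tested genes carried 70.1% of the variance. The knockdown libraries lay at 1 end of it and the other 4 at the opposite end. That of the 25 tested members carried 68.6%. On it the knockdown libraries lay at 1.27 and 1.01, overexpression at -0.27 and -0.44, and control at -1.02 and -0.55. Of 14 markers of sympathetic neuroblastoma, 11 stood at 1 FPKM or more in every library, while the neurofilament genes Nefl and Nefm were at 0.0612 FPKM or less and Dbh, the noradrenaline-forming enzyme, at 0.494 or less. The 14 markers summed to 891 and 970 FPKM in overexpressing cells, 727 and 744 in knockdown cells, and 1054 and 1022 in control cells. Of 11 tested ones, limma called 1 higher (9.09%) and 7 lower (63.6%) under knockdown, against 14.8% and 31.3% of all tested genes. Under overexpression 0 were higher and 3 lower (27.3%), against 0.69% and 0.849% of all tested genes. The 8 fibroblast markers summed to 1.96 to 2.82 FPKM over the 6 libraries, and the 1 tested was called higher under knockdown. Of 8 macrophage markers, summing to 5.16 and 4.97 FPKM in overexpressing cells, 9.25 and 9.44 in knockdown cells, and 7.47 and 6.86 in control cells, Ptprc, Csf1r and Adgre1, which define leukocytes and macrophages, were at 0.0306 FPKM or less. The sum was carried by Lyz2, a lysozyme gene, at 4.48 and 4.22 FPKM in overexpressing cells, 5.10 and 4.60 in knockdown cells, and 6.96 and 6.39 in control cells, and by the lysosomal gene Cd68, at 0.528 and 0.570 in overexpressing cells, 3.31 and 4.31 in knockdown cells, and 0.348 and 0.397 in control cells. Under knockdown limma called Cd68 higher (1.80 ± 0.11; adjusted p = 6.76e-05) and Lyz2 lower (-0.39 ± 0.08; adjusted p = 0.00356). A list of 16 digestive-tract genes summed to 56.7 and 69.0 FPKM in overexpressing cells, 29.0 and 30.3 in knockdown cells, and 63.1 and 58.2 in control cells. At 1 FPKM or more stood 13 and 14 of them in overexpressing cells, 3 in each knockdown library and 13 in each control library. Under knockdown limma called 1 of 14 tested ones higher and 13 lower, with a median log2 fold change of -1.67. For all tested genes the shares were 14.8% and 31.3%. The part of these marker lists in the results was not tested. Since these are bulk libraries, fewer cells of a type and less RNA per cell cannot be told apart.

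The transcripts of the list spanned a wide range of levels. By FPKM, which is scaled to length, Ddit4 was the most abundant at a mean of 70.6 over the 6 libraries, followed by Cdkn1a at 55.2, Trp53 at 38.9, Gdf15 at 29.6 and Plk3 at 27.9. On build GRCm38, Ddit4 lies at chr10:59949669-59951834 (minus strand), Cdkn1a at chr17:29090976-29100727 (plus), Trp53 at chr11:69580359-69591873 (plus), Gdf15 at chr8:70629393-70632456 (minus) and Plk3 at chr4:117128655-117133963 (minus). Neighbours in this order changed place between groups: Gdf15 lay above Trp53 in both knockdown libraries and below it in the other 4.

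**Figure D1:**
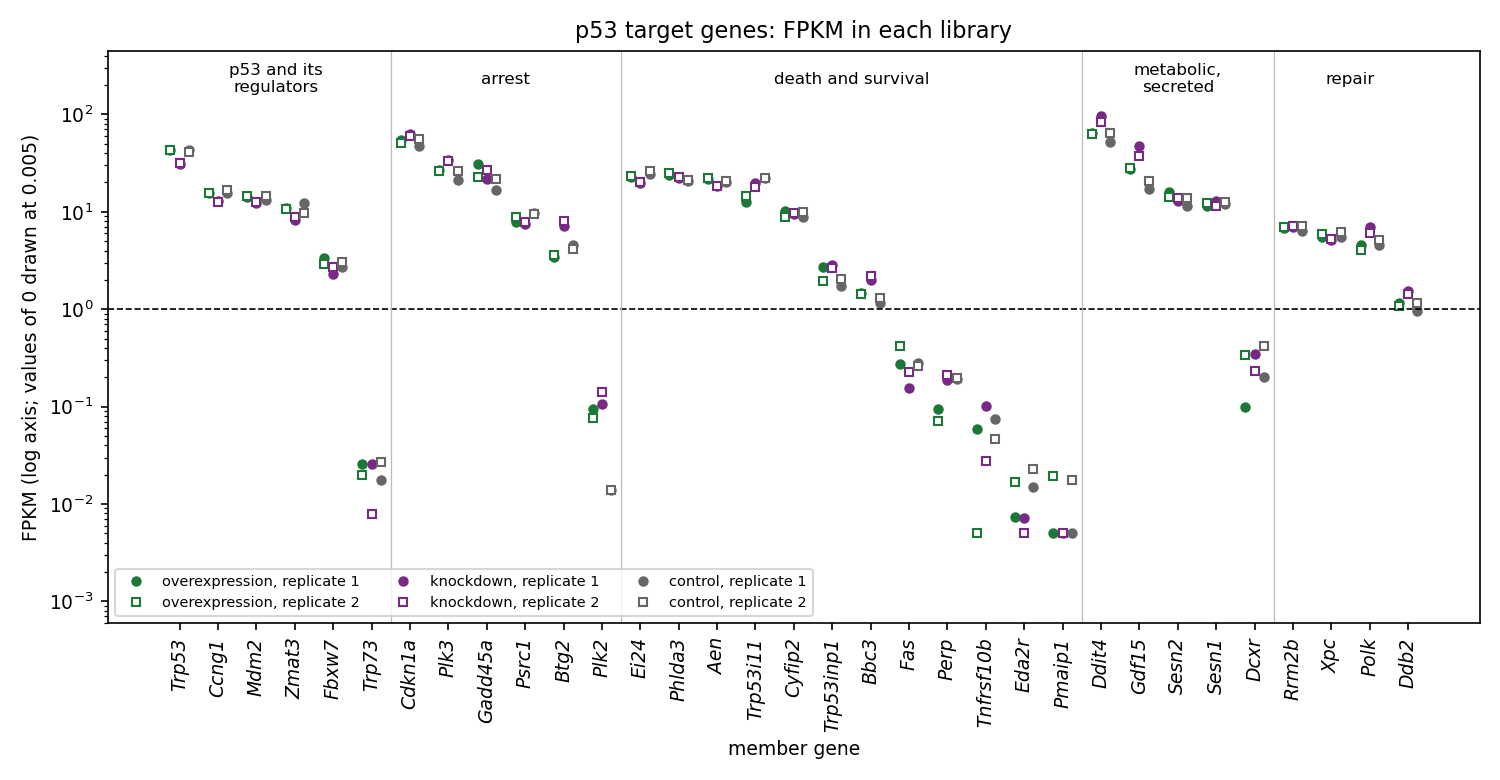
FPKM (log axis) of the 33 members in each of the 6 libraries, by role, with overexpressing, knockdown and control libraries in this order within each gene. The dashed line marks 1 FPKM, and values of 0 are drawn at 0.005. Of the 8 members under the line, the death receptor genes Eda2r, Tnfrsf10b and Fas and the NOXA gene Pmaip1 are 4.

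The untested members were mostly death genes. Pmaip1, which encodes the BH3-only protein NOXA, was listed at 0 and at 0.0194 FPKM in overexpressing cells, at 0 in both knockdown libraries, and at 0 and 0.0177 in control cells. Fas, a death receptor, stood at 0.273 and 0.422 FPKM in overexpressing cells, 0.154 and 0.224 in knockdown cells, and 0.279 and 0.261 in control cells. The death receptor genes Tnfrsf10b and Eda2r did not exceed 0.102 FPKM in any library. Trp73, the p53 relative, did not exceed 0.0269. Dcxr, a carbonyl reductase, had 0.0989 to 0.415 FPKM with overlapping groups. Perp, a desmosomal p53 effector, stood at 0.0955 and 0.0717 FPKM in overexpressing cells, 0.187 and 0.212 in knockdown cells, and 0.193 and 0.197 in control cells. Plk2, a polo-like kinase gene with a TGACGTCA element, stood at 0.0943 and 0.0772 FPKM in overexpressing cells, 0.107 and 0.141 in knockdown cells, and 0.0138 and 0.0140 in control cells. The groups of Plk2 did not overlap, at levels far under the limit for testing. Without a filter on low values Plk2 was called higher under knockdown (0.15 on the log2 scale; limma, adjusted p = 0.0103), and Perp lower in overexpressing than in knockdown cells (-0.15; adjusted p = 0.0151). On either side of that limit, Dcxr had a mean of 0.272 FPKM and was left out, and Ddb2 had 1.22 and was kept.

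To ask what lowering lncPim1 changed, knockdown cells were compared with control cells. Trp53 itself fell to 31.6 FPKM in knockdown cells, against 42.1 FPKM in control cells, and members of the list moved in both directions: Gdf15, Btg2, Ddit4, Plk3 and Cdkn1a were among those that rose, and Ccng1, Zmat3, Ei24 and Psrc1 among those that fell. Of 25 tested members, 9 were higher and 7 lower (limma, adjusted p under 0.05), or 36% and 28%. Among all tested genes 46.2% were called, 14.8% higher and 31.3% lower. This split rests on the scaling: 1590 genes were higher and 3358 lower as deposited, 2245 and 2286 after scaling by median log ratio, and 2003 and 2292 after quantile normalization. The median log2 fold change of the members was 0.06 (-0.04 without control 1), against -0.07 over all tested genes. In 10 members both knockdown libraries lay above both control libraries and in 9 below, against 26.5% and 47.9% of all tested genes. Gdf15 was the 1 member that changed by more than 1 on the log2 scale.

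Among p53 and its regulators, 0 of 5 tested genes rose and 3 fell. This and the following counts by role cover few genes each, beside 14.8% higher and 31.3% lower of all tested genes. Differences between roles were not tested. Trp53 stood at 31.2 and 32.1 FPKM in knockdown cells, against 42.9 and 41.4 in control cells. The knockdown libraries lay below both control libraries, with means of 31.6 ± 0.577 FPKM in knockdown and 42.1 ± 1.02 FPKM in control cells (SD, n = 2 each) and a log2 fold change of -0.40 ± 0.05 (SE; limma, adjusted p = 3.79e-04). Ccng1, the cyclin G1 gene whose product helps the phosphatase PP2A activate Mdm2, stood at 12.99 and 12.5 FPKM in knockdown cells, against 15.7 and 16.9 in control cells (-0.33 ± 0.06; limma, adjusted p = 0.00210). Zmat3, an RNA-binding zinc finger gene, had 8.30 and 8.88 FPKM in knockdown cells, against 12.2 and 9.75 in control cells (-0.32 ± 0.09; limma, adjusted p = 0.0224). Its control libraries differed by more from each other than the knockdown libraries did.

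Mdm2, the ubiquitin ligase gene, had 12.2 and 12.6 FPKM in knockdown cells, against 13.2 and 14.5 in control cells, and was not called (-0.14 ± 0.06; limma, adjusted p = 0.0914). Fbxw7, the substrate receptor of a ligase for cyclin E and MYC, stood at 2.30 and 2.71 FPKM against 2.71 and 3.02 in control cells and was not called (adjusted p = 0.252). Zmat3 no longer passed with control 1 left out (limma, adjusted p = 0.147), with knockdown 1 left out (0.103), without a filter on low values (0.0824), after scaling by median log ratio (0.0745) and after quantile normalization (0.0603). The calls of Trp53 and Ccng1 held in all 16 alternative fits, as did those of 6 other members named further on where the fit tested them.

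Of 5 tested arrest genes, 3 rose and 1 fell. Cdkn1a, which encodes the cyclin-dependent kinase inhibitor p21, stood at 63.6 and 59.6 FPKM in knockdown cells, against 47.4 and 55.4 in control cells. The groups did not overlap, and the control libraries lay further apart than the knockdown libraries. The log2 fold change was 0.26 ± 0.07 (SE; limma, adjusted p = 0.0208), and the call was lost without control 1 (0.148), without knockdown 1 (0.104) and without a filter on low values (0.0754). Btg2, an antiproliferative gene whose protein recruits the CCR4-NOT deadenylase, had 7.20 and 7.96 FPKM in knockdown cells, against 4.56 and 4.16 in control cells (0.68 ± 0.08; limma, adjusted p = 3.16e-04). Plk3, a polo-like kinase gene of the stress response, had 34.1 and 33.4 FPKM against 21.2 and 26.0 in control cells (0.51 ± 0.08; limma, adjusted p = 0.00174).

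Psrc1, which encodes a microtubule-binding protein of the spindle, fell to 7.51 and 7.76 FPKM in knockdown cells, against 9.81 and 9.38 in control cells (-0.29 ± 0.07; limma, adjusted p = 0.00913), a call lost without control 1 (0.0614). Gadd45a, a growth arrest and DNA damage gene, stood at 21.6 and 26.7 FPKM against 16.7 and 21.9 in control cells, with overlapping groups, and was not called (adjusted p = 0.144). Exons of Gadd45a share 19.1% of their length with the antisense gene E230016M11Rik, and those of Cdkn1a 7.68% and of Plk3 3.32% with genes on the other strand. Ei24 and Rrm2b, of other roles, share 6.66% and 8.04% in the same way. The libraries are labelled stranded, but no source used here states the strand setting of the counting. Whether reads from these stretches were assigned to the right gene is thus not known.

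The death and survival genes were split, with 2 of 7 tested higher and 3 lower. Bbc3, which encodes the BH3-only killer PUMA, stood at 1.98 and 2.18 FPKM in knockdown cells, against 1.17 and 1.30 in control cells (0.46 ± 0.09; limma, adjusted p = 0.00328). Trp53inp1, a p53 cofactor that also serves autophagy, had 2.84 and 2.67 FPKM against 1.74 and 2.04 in control cells (0.38 ± 0.12; limma, adjusted p = 0.0273). Both stood at low levels, with the knockdown libraries above both control libraries. Ei24, an endoplasmic reticulum protein gene, had 19.6 and 20.4 FPKM in knockdown cells, against 24.1 and 26.1 in control cells (-0.32 ± 0.06; limma, adjusted p = 0.00247). Trp53i11 had 19.6 and 17.8 FPKM against 22.3 and 22.4 in control cells (-0.24 ± 0.07; limma, adjusted p = 0.0213). Aen, an apoptosis-enhancing nuclease gene, had 18.6 and 18.5 FPKM against 20.4 and 20.6 in control cells (-0.14 ± 0.05; limma, adjusted p = 0.0458).

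Phlda3, whose protein competes with AKT for the membrane, and Cyfip2, a subunit of the actin-regulating WAVE complex, were not called (limma, adjusted p = 0.161 and 0.837). Cyfip2 had 9.40 and 9.81 FPKM in knockdown cells, against 8.85 and 10.1 in control cells. Phlda3 stood at 22.1 and 22.9 FPKM in knockdown cells, against 20.8 and 21.2 in control cells, and was called higher after median log ratio scaling (0.0224) and quantile normalization (0.0127). The call of Aen was lost after each scaling (0.356 and 0.643), with any 1 of the 6 libraries left out (0.0639 to 0.170), without the expression trend (0.0692), with a replicate block (0.0819) and with the 4 libraries of the contrast alone (0.0645). That of Trp53i11 was lost without control 1 (0.0839), control 2 (0.0866) or knockdown 2 (0.113), without a filter (0.0632) and after each scaling (0.0885 and 0.163). That of Trp53inp1 was lost without control 1 (0.146), knockdown 1 (0.108) or knockdown 2 (0.0619), without a filter (0.0920) and after quantile normalization (0.0511).

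Of the 4 tested genes of growth restraint and secreted signals, 2 rose and 0 fell. Gdf15, a secreted stress cytokine of the TGF-beta family, stood at 46.8 and 37.4 FPKM in knockdown cells, against 17.1 and 20.5 in control cells. The means were 42.1 ± 6.69 FPKM in knockdown and 18.8 ± 2.42 FPKM in control cells (SD, n = 2 each), a 2.24-fold ratio, and the log2 fold change was 1.12 ± 0.11 (SE; limma, adjusted p = 1.86e-04). Ddit4, which encodes the mTORC1 inhibitor REDD1, had 97.0 and 82.9 FPKM in knockdown cells, against 51.8 and 64.9 in control cells (0.62 ± 0.10; limma, adjusted p = 0.00177). In both genes the knockdown libraries lay further apart than the control libraries did, and the groups did not overlap.

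The sestrins, which restrain mTORC1 when amino acids are scarce, did not follow. Sesn1 had 13.03 and 11.4 FPKM in knockdown cells, against 12.1 and 12.6 in control cells, and Sesn2 had 12.8 and 13.8 against 11.3 and 13.9. Neither was called (limma, adjusted p = 0.842 and 0.533), and the groups overlapped in both. Whether they differed from Ddit4 in response was not tested.

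Of the 4 repair genes, 2 rose. Polk, a DNA polymerase that copies past lesions, stood at 6.92 and 6.04 FPKM in knockdown cells, against 4.54 and 5.17 in control cells (0.35 ± 0.09; limma, adjusted p = 0.0123). Ddb2, which recognises ultraviolet damage for nucleotide excision repair, had 1.54 and 1.44 FPKM against 0.966 and 1.14 in control cells (0.28 ± 0.09; limma, adjusted p = 0.0380). Its exons share 23.8% of their length with Acp2 on the other strand. Xpc, its partner in damage recognition, had 5.08 and 5.23 FPKM against 5.50 and 6.22 in control cells and was not called (limma, adjusted p = 0.120). Rrm2b, the p53-induced subunit of ribonucleotide reductase, had 6.91 and 7.19 FPKM against 6.39 and 7.10 (adjusted p = 0.523). The call of Polk was lost without control 1 (0.0877), without knockdown 1 (0.0796) and without a filter (0.0521). The call of Ddb2 was lost with any 1 of the 6 libraries left out (0.0519 to 0.195), after quantile normalization (0.115), with a replicate block (0.0637) and with the 4 libraries of the contrast alone (0.0515).

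**Figure D2:**
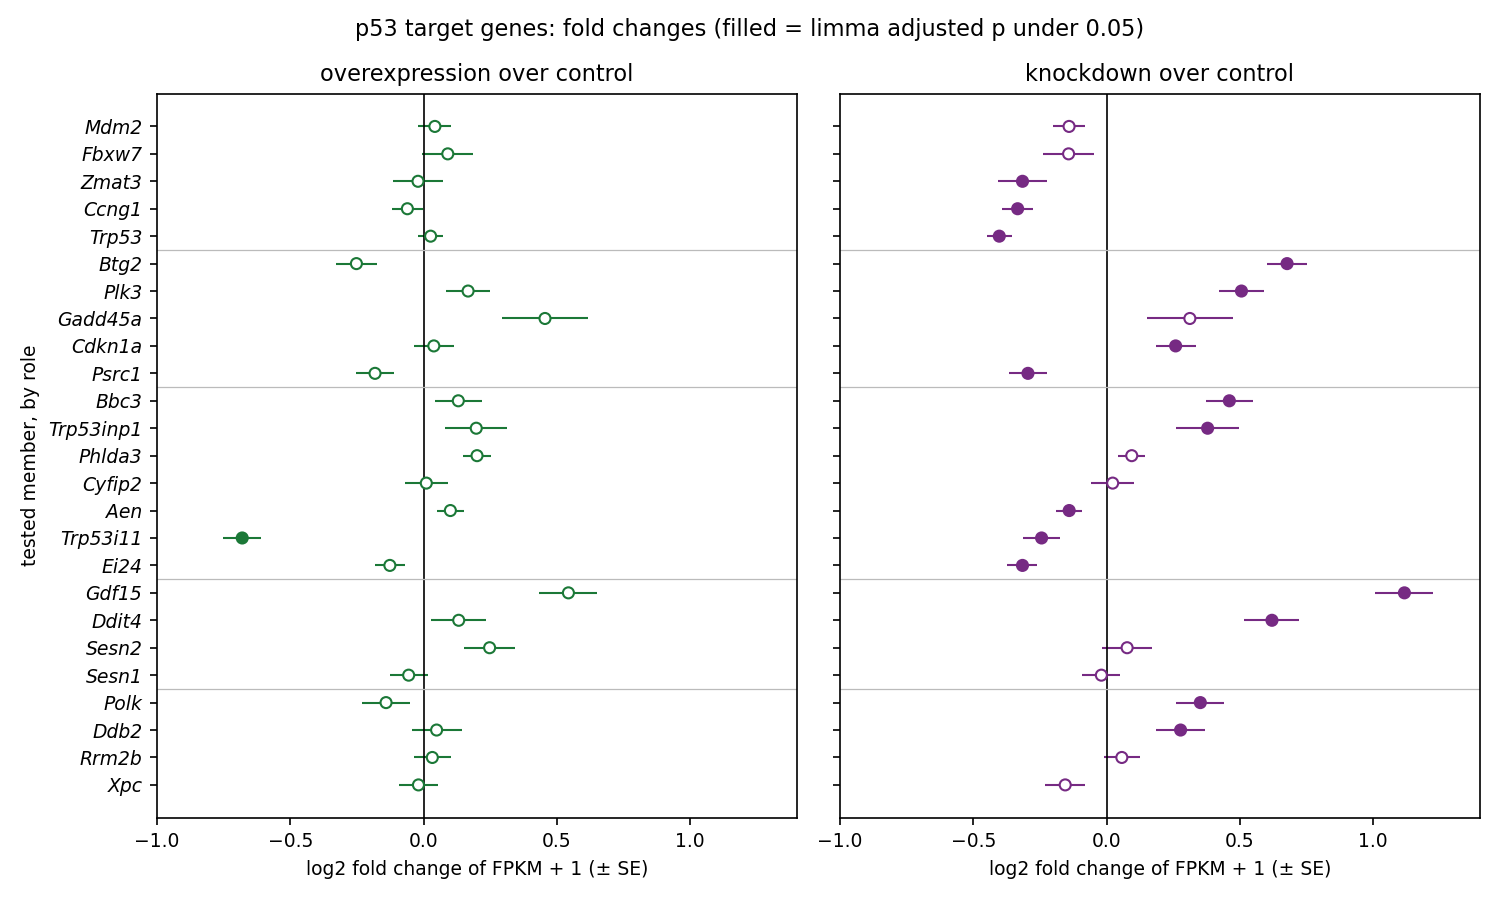
Log2 fold changes (± SE from the fit) of the 25 tested members, by role, for overexpression (left) and knockdown (right) over control, on the log2(FPKM + 1) scale. Filled points have a limma adjusted p under 0.05: 1 on the left (Trp53i11) and 16 on the right, of which 9 lie above 0 and 7 below.

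With each of the 6 libraries left out in turn, 8 of the 16 calls under knockdown held: Trp53, Ccng1 and Ei24 lower, and Bbc3, Btg2, Plk3, Ddit4 and Gdf15 higher. Without control 1, members called numbered 5 higher and 3 lower, and without knockdown 1, 5 and 5. After median log ratio scaling 10 members were higher and 4 lower, and after quantile normalization 8 and 4, so the number of lower calls rests in part on the scaling.

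Other genes of the pathway were read beside the list, in further lists also chosen with earlier results of these data known. Of 35 further tested p53-activated genes, 12 were higher and 11 lower under knockdown, with a median log2 fold change of 0.05. These were 34.3% and 31.4%, against 14.8% and 31.3% of all tested genes, so the lower share was close to that of all genes. Gadd45b, a relative of Gadd45a that also answers to NF-kB, had 12.5 and 11.2 FPKM in knockdown cells, against 5.03 and 4.65 in control cells (1.14 ± 0.08; limma, adjusted p = 9.70e-05). Gls2, a mitochondrial glutaminase gene, rose by 0.44 ± 0.07, while Gtse1, a spindle gene whose protein restrains p53, changed by -0.44 ± 0.07 (limma, adjusted p = 0.00146 and 0.00120). The lower calls numbered 5 without control 1, 5 without control 2, 7 without either knockdown library, 5 without a filter, 4 after median log ratio scaling and 5 after quantile normalization. The higher calls numbered 6 without control 1 and 7 with a filter at 5 FPKM.

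Of 36 tested regulators of p53, 1 was higher and 16 lower under knockdown, with a median of -0.12. These were 2.78% and 44.4%, against 14.8% and 31.3% of all tested genes, whose median was -0.07. The higher one was Mdm4, the MDM2-related inhibitor of p53, at 13.2 and 13.3 FPKM in knockdown cells, against 11.5 and 10.1 in control cells (0.27 ± 0.07; limma, adjusted p = 0.0118). Trim28, a corepressor that works with Mdm2, fell to 80.6 and 81.5 FPKM, against 115 and 117 in control cells (-0.51 ± 0.04; limma, adjusted p = 1.39e-04). Setd7, a lysine methyltransferase gene, and Hdac1, a histone deacetylase gene, followed at -0.33 ± 0.05 and -0.31 ± 0.05 (limma, adjusted p = 0.00143 and 0.00182). Without control 2 there were 0 higher and 10 lower, and after median log ratio scaling and quantile normalization 3 and 4 were higher.

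p21 is known to lower transcription of many cell cycle genes through the DREAM complex. Of 30 tested genes of that kind, 0 were higher and 21 lower under knockdown (70%), with a median of -0.30. All tested genes had 14.8% higher and 31.3% lower, with a median of -0.07. Ccnb1, the cyclin B1 gene, had 123 and 125 FPKM in knockdown cells, against 186 FPKM in each library of control cells (-0.58 ± 0.04; limma, adjusted p = 9.70e-05). Plk1, a mitotic kinase gene, changed by -0.67 ± 0.06, Cks2, a subunit of cyclin-dependent kinases, by -0.69 ± 0.06 and Cdc20, an activator of the anaphase-promoting complex, by -0.57 ± 0.05 (limma, adjusted p = 1.22e-04, 1.44e-04 and 1.51e-04). The part of p21 in these falls was not tested.

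Several members also belong to programmes other than that of p53. Under knockdown limma called 14.8% of all tested genes higher and 31.3% lower. These shares were 42.9% and 14.3% for tested ATF4 targets outside the list, and 76.2% and 0% for such immediate early genes. Of 14 tested ATF4 targets outside the list, 6 were higher and 2 lower under knockdown, with Ddit3, the CHOP gene, at 36.5 and 36.6 FPKM against 21.9 and 24.8 in control cells (0.63 ± 0.06; limma, adjusted p = 1.93e-04), and Trib3, a pseudokinase gene, at 52.9 and 51.7 against 34.9 and 38.2 (0.51 ± 0.07; limma, adjusted p = 7.57e-04). Atf5, a related factor, was lower (-0.88 ± 0.09; limma, adjusted p = 1.96e-04). In 12 of the 16 alternative fits 1 of the ATF4 targets was lower. Of 21 tested immediate early genes outside the list, 16 were higher and 0 lower. Egr1, a growth factor-induced transcription factor gene, had 47.4 and 43.7 FPKM in knockdown cells, against 10.5 and 11.9 in control cells (1.93 ± 0.08; limma, adjusted p = 2.42e-05). Junb, an AP-1 subunit gene, had 81.9 and 85.8 FPKM in knockdown cells, against 37.0 and 38.2 in control cells (1.14 ± 0.05; limma, adjusted p = 2.42e-05). Ier3 and Zfp36, other members of this class, rose by 1.17 ± 0.07 and 1.63 ± 0.14 (limma, adjusted p = 5.37e-05 and 1.49e-04). These genes moved beside Gdf15, Ddit4, Btg2 and Plk3, and their part in those rises was not tested.

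**Figure D3:**
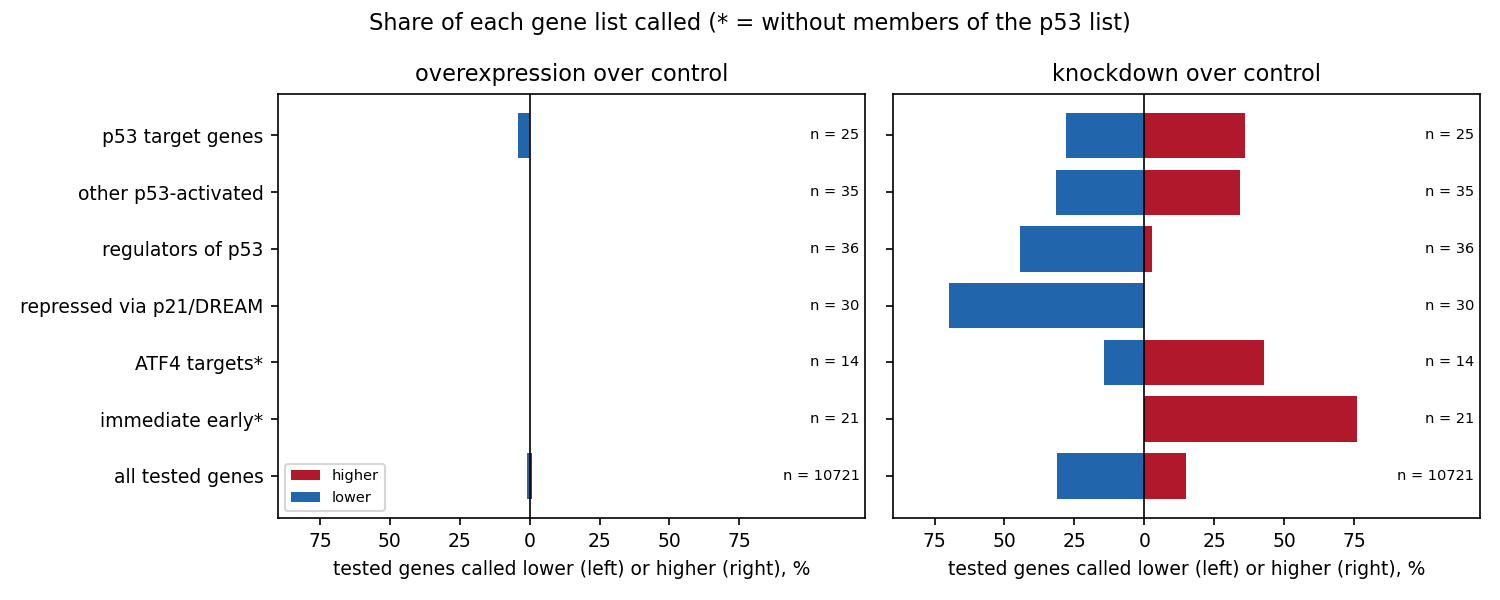
Share of tested genes called lower (left of 0) or higher (right of 0) by limma in each list and among all tested genes, for overexpression and knockdown over control. Under knockdown the p53 list had 36% higher and 28% lower, the p21 and DREAM list 0% and 70%, and all tested genes 14.8% and 31.3%. Under overexpression few genes were called.

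What raising lncPim1 changed was read from overexpressing against control cells. A single member, Trp53i11, was called, and it was lower. Of 25 tested members limma called 0 higher and 1 lower, or 4%, and 7 (28%) had an unadjusted p under 0.05, against 17.1% of all tested genes. Among all tested genes 1.54% were called, 0.69% higher and 0.849% lower. The median log2 fold change was 0.04 over the members and -0.00307 over all tested genes. In 7 members both overexpression libraries lay above both control libraries and in 5 below, against 23.3% and 26.2% of all tested genes.

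Trp53i11, a p53-induced gene tied to cell death in human cells, had 12.7 and 14.4 FPKM in overexpressing cells, against 22.3 and 22.4 in control cells. The groups did not overlap, with means of 13.6 ± 1.19 FPKM in overexpressing and 22.3 ± 0.0423 FPKM in control cells (SD, n = 2 each). The log2 fold change was -0.68 ± 0.07 (SE; limma, adjusted p = 0.00560). The call was lost without control 1 (0.0653) and without a filter on low values (0.0713), with fold changes of -0.68 in both. No exon of another annotated gene overlaps Trp53i11 (chromosome 2, bases 93187548 to 93201759, plus strand, GRCm38).

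Trp53 stood at 42.9 and 43.0 FPKM in overexpressing cells, against 42.9 and 41.4 in control cells (0.03 ± 0.05; limma, adjusted p = 0.829). Cdkn1a had 54.2 and 51.2 FPKM against 47.4 and 55.4 (0.04 ± 0.07; adjusted p = 0.844), and Mdm2 14.0 and 14.5 against 13.2 and 14.5 (0.04 ± 0.06; adjusted p = 0.779). In these central genes of the pathway the groups overlapped, and a missed call does not show that they were alike. Gdf15 had 27.3 and 28.3 FPKM in overexpressing cells, above both control libraries at 17.1 and 20.5, and narrowly missed the threshold (0.54 ± 0.11; limma, adjusted p = 0.0512). It was called in 6 of the 16 alternative fits, with adjusted p between 0.0270 and 0.0475.

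Other members with an unadjusted p under 0.05 under overexpression were Phlda3 at 23.8 and 24.8 FPKM (0.20 ± 0.05), Sesn2 at 16.0 and 14.2 (0.25 ± 0.09), Gadd45a at 31.2 and 22.7 (0.46 ± 0.16), Btg2 at 3.42 and 3.59 (-0.25 ± 0.08) and Psrc1 at 7.83 and 8.87 (-0.18 ± 0.07). None passed the adjusted threshold (limma, adjusted p = 0.103, 0.230, 0.201, 0.145 and 0.236). The remaining 15 tested members had adjusted p between 0.301 and 0.967 under overexpression (limma). Among the genes that rose under knockdown, Ddit4 had 63.8 and 63.5 FPKM in overexpressing cells, against 51.8 and 64.9 in control cells, with overlapping groups. Plk3 had 26.9 and 26.0 FPKM against 21.2 and 26.0 in control cells. Bbc3 stood at 1.47 and 1.43 FPKM against 1.17 and 1.30, and Polk at 4.56 and 4.06 against 4.54 and 5.17. The PUMA gene was thus above both control libraries by a small margin that was not called (adjusted p = 0.496). Trp53inp1 had 2.72 and 1.95 FPKM against 1.74 and 2.04 in control cells, and Ddb2 1.16 and 1.09 against 0.966 and 1.14. Of the genes that fell under knockdown, Ccng1 had 15.5 and 15.7 FPKM in overexpressing cells, against 15.7 and 16.9 in control cells, and Zmat3 10.9 and 10.6 against 12.2 and 9.75. Aen, the nuclease gene, lay above its control libraries and Ei24 below them, at 21.7 and 22.4 FPKM against 20.4 and 20.6, and at 22.6 and 23.2 against 24.1 and 26.1. The damage and metabolic genes Sesn1, Rrm2b and Xpc, with Cyfip2 and Fbxw7, had overlapping groups.

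Among the other lists limma called 0 of 35 further p53-activated genes, 0 of 36 regulators, 0 of 30 genes repressed through p21 and DREAM, 0 of 14 ATF4 targets and 0 of 21 immediate early genes. The share called over all tested genes was 1.54%. At an unadjusted p under 0.05 there were 5, 6, 7, 4 and 6, beside the 17.1% of all tested genes.

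Whether the manipulations differed from each other was tested directly by comparing overexpressing with knockdown cells. Of 25 tested members, 6 (24%) were higher and 8 (32%) lower in overexpressing cells. Among all tested genes 40.5% were called, 28.1% higher and 12.4% lower. The share of members called higher was thus below that of all tested genes. After median log ratio scaling 1951 genes were higher and 1908 lower, against 3013 and 1332 as deposited, and after quantile normalization 1930 and 1707. In 11 members both overexpression libraries lay above both knockdown libraries and in 9 below, against 47.2% and 24.7% of all tested genes. This comparison shares its libraries with those above and is no separate support for them. Trp53 had 42.9 and 43.0 FPKM in overexpressing cells, against 31.2 and 32.1 in knockdown cells (0.43 ± 0.05; limma, adjusted p = 5.07e-04). Ccng1 (0.27 ± 0.06), Aen (0.24 ± 0.05), Zmat3 (0.29 ± 0.09), Ei24 (0.19 ± 0.06) and Mdm2 (0.18 ± 0.06) were also higher (limma, adjusted p = 0.00643, 0.00576, 0.0336, 0.0272 and 0.0424).

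Btg2 was lower in overexpressing than in knockdown cells, at 3.42 and 3.59 FPKM against 7.20 and 7.96 (-0.93 ± 0.08; limma, adjusted p = 2.17e-04). Gdf15 had 27.3 and 28.3 FPKM against 46.8 and 37.4 in knockdown cells (-0.57 ± 0.11; adjusted p = 0.00397), so overexpressing cells lay between the other groups. Polk (-0.49 ± 0.09), Ddit4 (-0.49 ± 0.10), Plk3 (-0.34 ± 0.08), Bbc3 (-0.33 ± 0.09) and Cdkn1a (-0.22 ± 0.07) were lower too (limma, adjusted p = 0.00340, 0.00645, 0.0129, 0.0171 and 0.0437). Trp53i11, at 12.7 and 14.4 FPKM against 19.6 and 17.8 in knockdown cells, was lower in overexpressing cells than in either other group (-0.44 ± 0.07; limma, adjusted p = 0.00210).

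With each library left out, 8 of these 14 calls held: Trp53, Ccng1, Aen, Btg2, Gdf15, Polk, Ddit4 and Trp53i11. The calls of Mdm2 and Zmat3 were lost with any 1 of the overexpression or knockdown libraries left out (limma, adjusted p = 0.0745 to 0.164 and 0.0570 to 0.140), as was that of Cdkn1a (0.0569 to 0.185). That of Ei24 was lost without overexpression 1 (0.0680), overexpression 2 (0.122) or knockdown 1 (0.109), that of Bbc3 without overexpression 1 (0.0578), overexpression 2 (0.0740) or knockdown 2 (0.0808), and that of Plk3 without overexpression 2 (0.0623) or knockdown 1 (0.0563). Without a filter on low values the calls of Mdm2 (0.0701), Zmat3 (0.106), Cdkn1a (0.120) and Plk3 (0.0590) were lost. After median log ratio scaling those of Mdm2 (0.184), Zmat3 (0.102) and Ei24 (0.136) were lost, and after quantile normalization those of Mdm2 (0.181), Zmat3 (0.0875), Ei24 (0.245) and Aen (0.0517), which left 3 and 2 members higher. Without the expression trend, and with a replicate block, Mdm2 (0.0576 and 0.0522) and Cdkn1a (0.0742 and 0.0657) no longer passed. Ddb2 was called lower after median log ratio scaling (0.0470) and without the expression trend (0.0292).

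**Figure D4:**
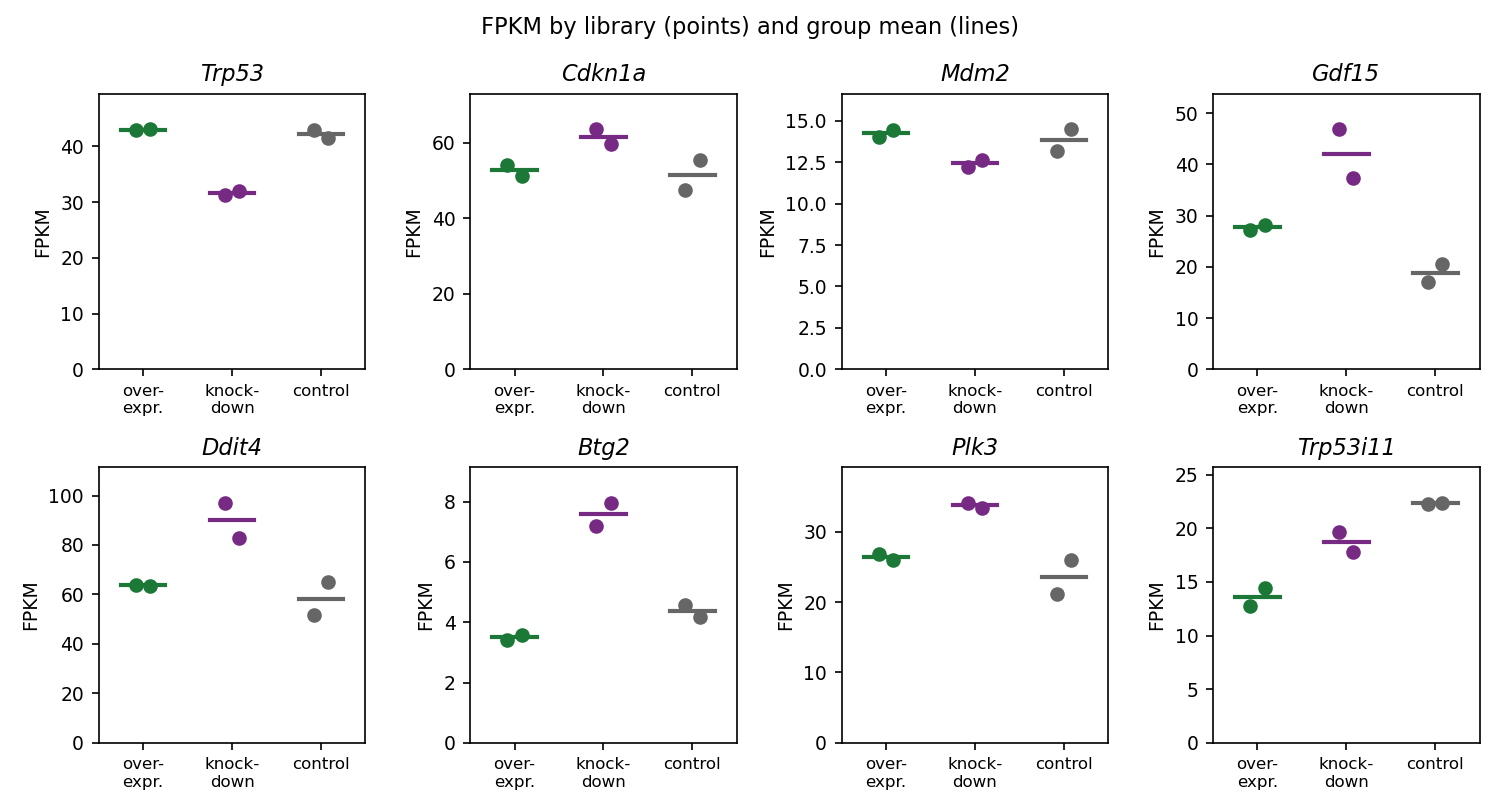
FPKM (linear axis from 0) of 8 members in each library (points) with the group mean (lines), for overexpressing, knockdown and control cells from left to right. Trp53 is low in knockdown cells alone, Gdf15, Ddit4, Btg2 and Plk3 are high there, and Trp53i11 is lowest in overexpressing cells (12.7 and 14.4 FPKM, against 19.6 and 17.8 in knockdown and 22.3 and 22.4 in control cells).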

How the data were processed

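Polyadenylated RNA of Neuro-2a cells was sequenced from stranded libraries, per the labels. The authors deposited FPKM values per gene symbol and library; Trimmomatic, HISAT2, Cufflinks, HTSeq and DESeq and build mm10 are named, per the submitters' processing notes, without versions. The sources used here state no annotation, filter or strand setting.

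The 10721 rows that averaged 1 FPKM or more were analysed on the log2(FPKM + 1) scale, which understates fold changes of low genes. limma 3.58.1 in R 4.3.3 fitted 1 mean per group with a trended empirical Bayes spread from all 6 libraries (3 residual degrees of freedom). Two-sided p-values were adjusted by Benjamini-Hochberg over all tested genes within a contrast, and an adjusted p under 0.05 was called. The fit was tested on simulated data. An exact permutation of 2 against 2 libraries cannot give a p under 0.333.

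Absolute depth is not given. Low FPKM values stood in ratios of small whole numbers (within 0.03 on the log2 scale in 46.2% to 63.4% of low rows), which put depths relative to control 1 at 0.884 to 1.08. Without counts no counting intervals are given. Members, lists and tests were chosen with earlier results of these data known. Fold changes are given for members called in a contrast and, in the other lists under knockdown, for the 4 called genes with the smallest p (Gdf15, already a member, among the ATF4 targets), apart from 2 genes that are not reported here. Mdm4 and fold changes of uncalled members were added after their values were seen. Members' positions came from GENCODE release M 21 (GRCm38). A list symbol not found in the table was replaced by its older symbol from RefSeq, and genes of the lists not found were not analysed here.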

Additional observations from a re-analysis of the deposited data

How the results depend on the processing

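In 16 alternative fits per contrast no called member changed direction. Under knockdown 43 of 253 repeated calls of members were lost, under overexpression 2 of 16, and between overexpression and knockdown 35 of 223, as given beside each gene; the cause was not tested. A further 591 repeated calls covered selected called genes of the other lists, under knockdown and between overexpression and knockdown. Some of these genes are not named elsewhere here. Of these calls 1 was lost, that of Kmt5a between overexpression and knockdown after quantile normalization. Mdm4 and the macrophage markers were not among these genes, so this count does not describe their calls.

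Members lower under knockdown numbered 4 after median log ratio scaling and 4 after quantile normalization; the same settings gave 3 and 2 members higher in overexpressing than knockdown cells, and 1951 and 1930 such genes in all. A filter at 5 FPKM, with fewer genes tested, gave 942 genes higher under knockdown, 48 higher under overexpression and 802 lower in overexpressing than knockdown cells. Under overexpression 9 genes were higher and 0 lower without a filter (members lower: 0), and 44 lower without the expression trend. Gdf15 made 1 member higher there with a filter at 5 FPKM, after median log ratio scaling, with a robust fit and with the 4 libraries of the contrast alone.

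Deviations of same-numbered libraries correlated at -0.117 (overexpression and control), 0.00692 (knockdown and control) and -0.211 (overexpression and knockdown). With a single difference between replicates in each group, these values cannot settle whether replicate numbers paired the libraries. With a replicate block 37 genes were higher and 29 lower under overexpression (members 0 and 1), 1441 and 3063 under knockdown (members 8 and 6), and 2655 and 1165 between overexpressing and knockdown cells (members 5 and 7).

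With 1 library left out, whose lone partner is assumed to vary like the other groups, knockdown gave 973 to 1546 genes higher and 2325 to 3299 lower (members 5 to 8 and 3 to 6). Overexpression gave 12 to 80 higher and 2 to 92 lower (members 0 to 1 each), and overexpression against knockdown 2058 to 2722 higher and 789 to 1233 lower (members 3 to 6 and 5 to 8). With 2 libraries a group and no counts, the precision of low genes is not known.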
